A study of Mus musculus with 6 samples.

Results

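The respiratory chain subunits encoded in the nucleus were followed in C2C12 cells, a mouse myoblast line, by RNA sequencing in 6 libraries. Genes were taken by symbol: those beginning with Nduf, Uqcr or Atp5, the Sdha to Sdhd genes and the genes beginning with Cox4 to Cox8. The symbols Cox6a1, Cox6a2, Cox7a1, Cox7a2, Cox8a and Cox8b were left out of this choice. Of the 86 symbols in the table, 82 reached an average of 1 FPKM over the 6 libraries and are the members described here, out of 20945 genes. FPKM counts fragments scaled to transcript length and to the mapped reads of the library, so that levels of different genes are given per length. Of the 82 members, 73 were counted as subunit genes: 7 core and 29 supernumerary subunits of complex I, 4 subunits of complex II, 8 of complex III, 10 of complex IV and 15 of complex V. A further 7 are Ndufaf assembly factors of complex I. Atp5s and Atp5sl were taken in by symbol and are counted with none of the complexes. Ndufa4, named after complex I, was counted with complex IV, in which the protein is found. Cox7a2l, a factor that joins complexes III and IV, was counted with complex IV by its symbol.

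Cells grew in DMEM with 10% FBS (fetal bovine serum) or were switched to differentiating media with 2% HS (horse serum) or 0.2% FBS. Either differentiating medium was also used with exosomes, the small membrane vesicles of serum, isolated from FBS, to ask how they affect myogenic differentiation. The conditions 10% FBS, 2% HS, 2% HS + exosome and 0.2% FBS have 1 library each, and 0.2% FBS + exosome has 2. Exosomes were added in about the number that 10% FBS holds, per the study's methods. The day of harvest of each library is not given in the sources used here, nor are the libraries stated to be separate cultures, so the spread between the pair of 0.2% FBS + exosome libraries may be technical. All libraries come from 1 cell line. Library totals ran from 461140 to 514929 FPKM, and the depth, estimated from the steps between low values, from 33700000 to 39500000 reads. All 6 myogenic marker genes reached 1 FPKM. Markers of endothelial, epithelial and adipose cells stayed at or below 0.607 FPKM per gene, and the leukocyte markers summed to 2.07 to 3.41 FPKM.

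Complex I takes electrons from NADH and complex II takes them from succinate, and both pass them to ubiquinone. Complex III carries them on to cytochrome c and complex IV to oxygen. The proton gradient built by complexes I, III and IV drives complex V, the ATP synthase. Myotubes are known to hold more mitochondria and to respire more than proliferating myoblasts, and the nuclear subunit genes are known targets of the factors NRF1, GABP, YY1 and ERRalpha.

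Promoter sites for these factors are shown first, as a description of sequence that the choice by symbol did not use. RefSeq windows from 250 bases before to 50 after the start (GRCm38.p6) were matched for 70 of the 82 members and searched on both strands. The letters GCGCATGC, a core of the NRF1 site, were found in 11 windows (15.7%), against 6.04% of 8620 windows of genes tested and 2.71% of all 32851 windows. For YY1 (AAGATGGCG) the members had 7 windows (10.0%), against 3.65% of genes tested and 1.40% of all. ESRRA letters (TCAAGGTCA) lay in 2 (2.86%), against 0.232% and 0.423%. GABPA letters (CCGGAAGT) lay in 4 (5.71%), against 9.47% and 3.89%. None of these motifs contains another. GCGCATGC read on both strands can overlap itself, so 10 capitals mark 2 overlapping hits. The 6 stretches of 30 bases below are those of genes named by the rule given under processing, with a site before the RefSeq start. Atp5sl, described below outside that rule, also has YY1 letters before its start, at −53, and is not shown. Capitals mark the matched letters on the strand of the gene.
Atp5g2, NRF1, chr15:102671070-102671099, minus strand: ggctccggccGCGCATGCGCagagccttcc
Atp5k, NRF1, chr5:108434430-108434459, minus strand: tttcactgcgGCGCATGCGCctttctggct
Ndufa11, NRF1, chr17:56717692-56717721, plus strand: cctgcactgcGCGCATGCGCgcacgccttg
Sdhb, NRF1, chr4:140961206-140961235, plus strand: aagcccagtggGCATGCGCcctacgggccg
Atp5g3, ESRRA, chr2:73911360-73911389, minus strand: ttgttacaaagTGACCTTGAgcgtcttccc
Uqcrh, GABPA, chr4:116075063-116075092, minus strand: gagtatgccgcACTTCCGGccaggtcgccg
The first matched base lay 42, 50, 60, 54, 52 and 11 bases before the start in these 6 genes, in the order shown. GENCODE vM21 places some starts elsewhere: by its gene bounds the matched letters lie inside the gene for Atp5g2 and Sdhb and, for 9 of 10 letters, Atp5k. A match is a run of letters and was not tested for binding. With exosomes in 0.2% FBS the median change was −0.15 (log2) in the 11 members with NRF1 letters and −0.23 in those without. It was −0.15 with and −0.22 without the YY1 letters, and −0.21 with and without those of GABPA. For ESRRA it was −0.31 with and −0.21 without. Letters of any of the 4 lay in 23 windows (32.9%, against 18.2% of genes tested). The median change was −0.16 in these members and −0.33 in those without. These differences were not tested.

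The subunit genes ranked among the more abundant transcripts of these cells. The median level of a member was 155 FPKM against 11.7 over the 10729 genes tested, those averaging 1 FPKM or more. Median levels ran from complex I core (118) and complex II (122) to complex III (292), complex IV (430) and complex V (431 FPKM), and the Ndufaf assembly factors were at 7.19. Atp5b, the catalytic beta subunit of ATP synthase, had the highest level with a mean of 1300 FPKM, followed within complex IV by Cox4i1 at 791. The members were short genes, with a median transcript of 977 bases and 4 exons against 3003 bases and 9 exons, and 22 (26.8%) had another gene starting in the opposite direction within 1000 bases, against 11.1% of genes tested.

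Summed over all members, the level was 18003 FPKM in 10% FBS, 21510 in 2% HS, 19497 in 2% HS + exosome, 21512 in 0.2% FBS, and 15988 and 19430 in the 0.2% FBS + exosome libraries. These sums made up 3.85%, 4.56%, 4.16%, 4.37%, 3.47% and 3.77% of all FPKM of each library. Both differentiating controls were the highest, and both exosome libraries of 0.2% FBS lay below their control. By summed FPKM growing cells lay between these exosome libraries, and by share of the library total they lay above both.

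**Figure D1:**
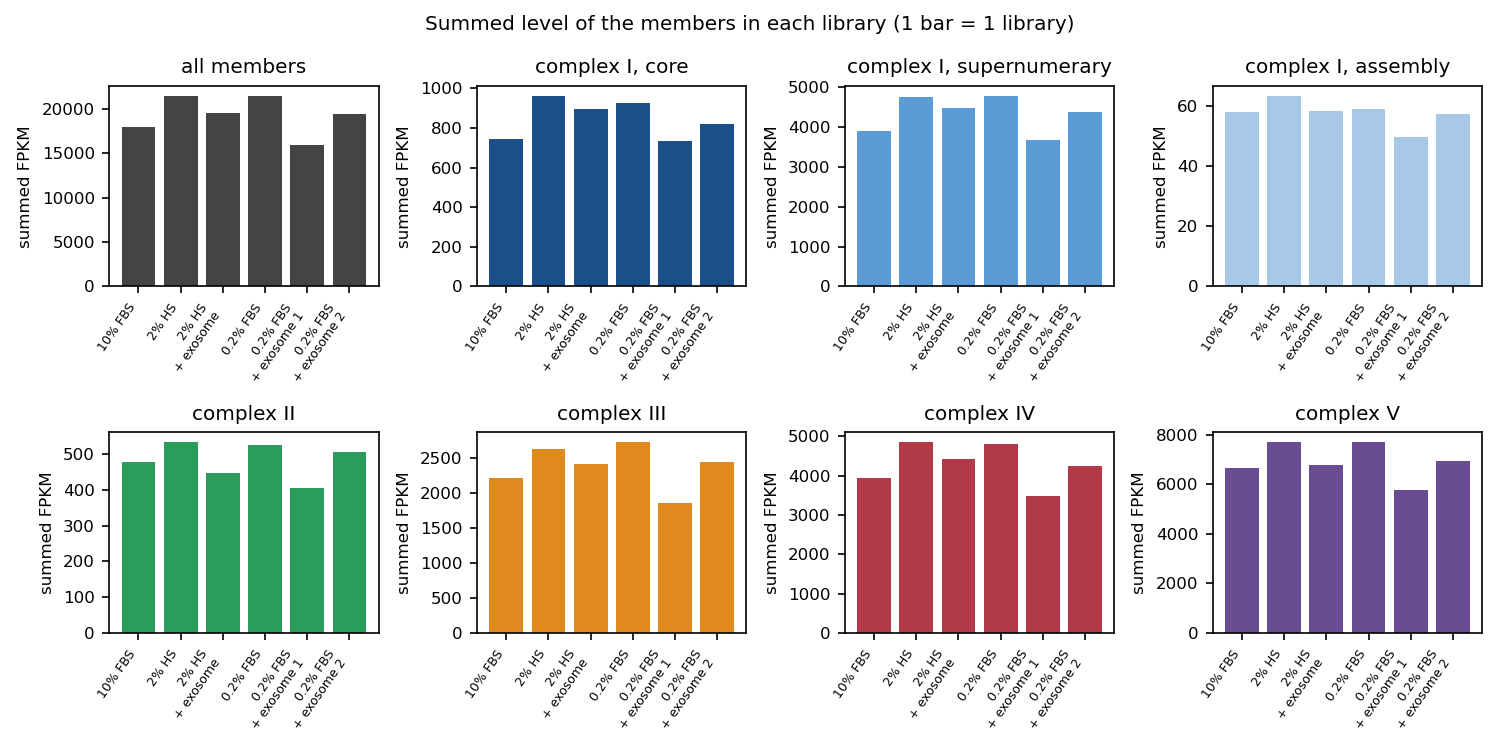
Summed FPKM (vertical axis, linear, from 0) of all members and of each complex in the 6 libraries, 1 bar per library. The 2% HS and 0.2% FBS bars are the highest or among the highest in each panel, and the first 0.2% FBS + exosome bar is the lowest in each panel.

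In the differentiating controls most members lay above growing cells. Between 0.2% FBS and 10% FBS, 74 of 82 members were higher, against 38.5% of all genes tested, with a median difference of 0.24 on the log2(FPKM + 1) scale against −0.09. Between 2% HS and 10% FBS, 71 members were higher, against 40.1% of genes tested, with a median of 0.27 against −0.08. No member passed a log2 difference of 1 in either, where 2.48% and 2.31% of genes tested did. Genes of like level leaned the same way as the members, by less. Of the 1464 averaging 50 FPKM or more, a set chosen after the values were seen, 58.1% were higher in each comparison. Their medians were 0.07 in 0.2% FBS and 0.08 in 2% HS. All 36 complex I subunits were higher in 0.2% FBS than in 10% FBS. Each of these comparisons has 1 library on each side and no replicate check, and both share the 10% FBS library.

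With exosomes in 0.2% FBS, 60 of the 82 members (73.2%) were lower than the control in both libraries, against 27.5% of genes tested, and 5 (6.10%) were higher in both, against 55.2%. The median change of the members was −0.23 (−0.36 and −0.12 in the 2 libraries, SD 0.17), while the median of all genes tested was 0.14. Among the 1464 genes averaging 50 FPKM or more, a set chosen after the values were seen, 40.0% were lower in both and 39.8% higher in both, with a median of 0.02. The differences were small: no member passed a log2 change of 1 in both libraries, where 2.51% of genes tested did. limma called none of the members at an adjusted p of 0.05 and 12.5% of all genes tested (4.32% as lower), and the lowest adjusted p of a member was 0.0724, for Ndufa9. At an unadjusted p under 0.05 it gave 10 members, all lower, and 31.5% of genes tested. Its spread comes from 1 pair of libraries and is assumed for the single control library. An SD given after ± below is that of the pair and holds no spread of the control.

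**Figure D2:**
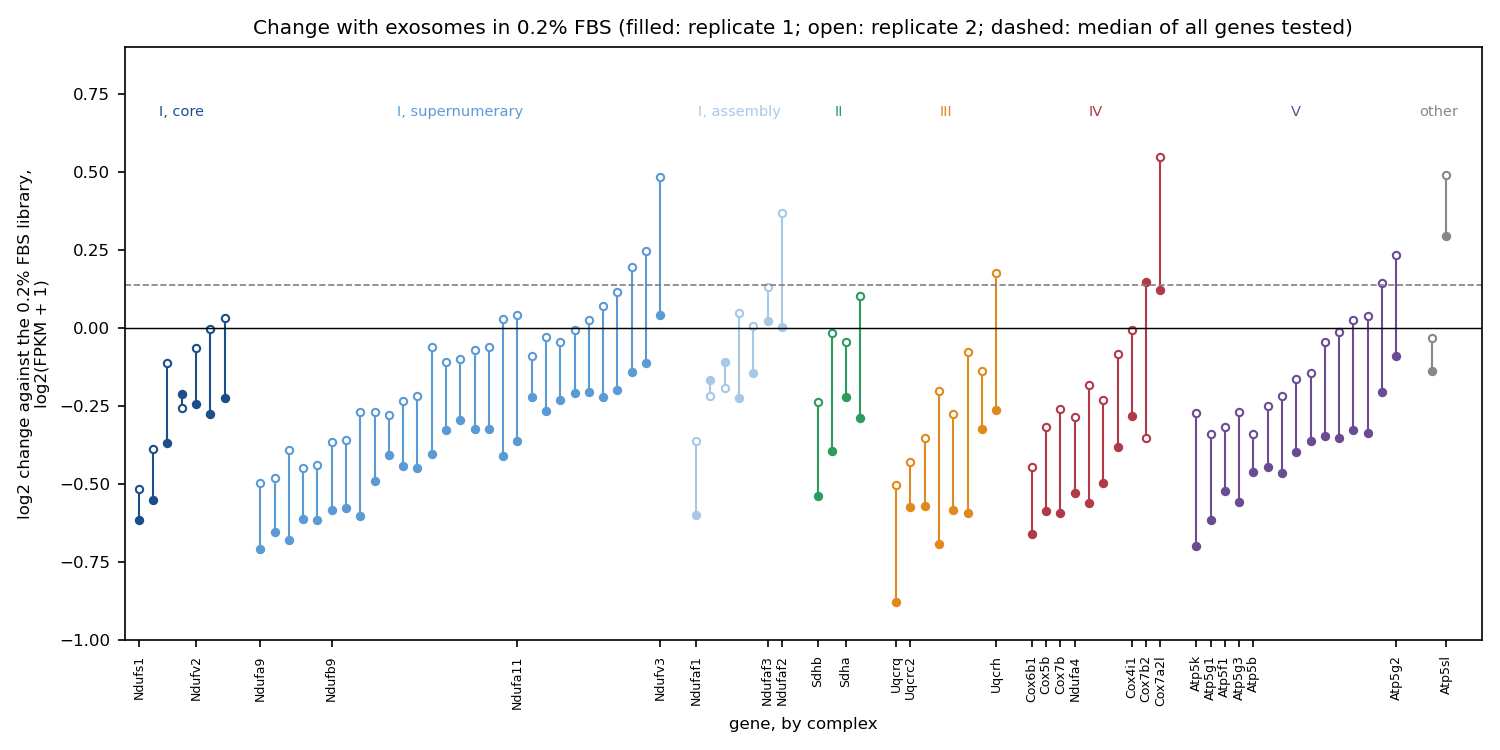
Change of each member with exosomes in 0.2% FBS (vertical axis, log2(FPKM + 1) difference from the control library), with genes along the horizontal axis by complex and names at some of those described in the text, filled points for replicate 1 and open points for replicate 2. Of 82 members, 60 have both points below 0, and 5 have both above it. The dashed line is the median of all genes tested, 0.14, and "other" holds Atp5s and Atp5sl.

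Scaling to a common 75th percentile took the median of all genes from 0.14 to 0.04. Under it 71 members were lower in both exosome libraries, and 2, Cox7a2l and Atp5sl, were higher in both, while limma called 6 members (7.32%) lower. This share was near that of all genes tested, of which 7.48% were called lower and 15.4% in either direction. These were Ndufs1, Ndufa9, Ndufb3, Ndufs4, Ndufaf1 and Uqcrc2, with log2 changes from −0.71 for Ndufa9 to −0.58 for Ndufaf1 and limma adjusted p from 0.0235 to 0.0483.

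Markers of differentiated muscle moved with these differences. All 5 (Ckm, Myh3, Tnnt3, Acta1 and Mylpf) reached 1 FPKM, and they summed to 7100 FPKM in 10% FBS, 15800 in 2% HS, 15000 in 2% HS + exosome, 17400 in 0.2% FBS, and 6740 and 4810 with exosomes in 0.2% FBS. The 6 myogenic markers summed to 2300 in 0.2% FBS and to 1360 and 1390 with exosomes. Des, Myog, Chrna1 and Myod1 of this list were lower in both exosome libraries, while Myf5 was at 10.1 and 12.9 FPKM against 5.39 and Cdh15 at 149 and 152 against 123. The part of these markers in the members' change was not tested, and in bulk RNA fewer cells of a type and less RNA per cell cannot be told apart. The order of the pair of exosome libraries was not the same in the muscle markers, which were lower in replicate 2, as in the members, which were lower in replicate 1.

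Complex I is the largest complex, with 36 subunit genes among the members, of which 27 were lower in both exosome libraries and 1 was higher in both. Ndufs1, the largest core subunit, which carries iron-sulphur clusters, measured 92.3 FPKM in 0.2% FBS, and 60.0 and 64.3 with exosomes. In the other libraries it was at 78.5 in 10% FBS, 110 in 2% HS and 90.6 in 2% HS + exosome. Both exosome libraries of 0.2% FBS thus lay below all 4 others. The change of Ndufs1 was −0.56 ± 0.07 (SD of 2 libraries; limma SE 0.19, adjusted p = 0.0805), the lowest change of the core subunits.

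Ndufa9, a supernumerary subunit of the peripheral arm, had 87.8 FPKM in 0.2% FBS and 53.3 and 62.0 with exosomes, against 64.7 in 10% FBS, 88.0 in 2% HS and 79.3 in 2% HS + exosome. Its pair of exosome libraries was the lowest of the 6. The change of −0.60 ± 0.15 (limma SE 0.19) was the lowest change of the supernumerary group. Ndufb9, of the membrane arm and the most abundant of this group, was at 510 FPKM in the control and at 340 and 396 with exosomes. Its change was −0.47 ± 0.15 (limma SE 0.30, adjusted p = 0.32).

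Ndufv2, an iron-sulphur subunit with the lowest level of the core group, measured 82.9 FPKM in 0.2% FBS, and 70.0 and 79.3 with exosomes. Both exosome libraries lay below the control and above the 10% FBS library, at 67.2 FPKM. Ndufa11, a membrane subunit with the NRF1 letters shown above and the lowest level of the supernumerary group, measured 22.1 FPKM in 0.2% FBS, and 17.0 and 22.7 with exosomes, so that the pair lay on both sides of the control.

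Ndufv3, a small subunit of the NADH-oxidising module, lay on the other side. Its level was 125 FPKM in 0.2% FBS and 129 and 175 with exosomes, and 114, 125 and 110 in 10% FBS, 2% HS and 2% HS + exosome. The second exosome library was the highest of the 6, and the first lay close to both differentiating controls. The mean change of 0.26 was smaller than the SD of the pair, 0.31, and limma gave an adjusted p of 0.507.

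The 7 Ndufaf genes, whose products help to build complex I and are not part of the finished complex, had a median change of −0.09 (−0.14 in replicate 1 and 0.01 in replicate 2), with 3 lower and 2 higher in both libraries. Ndufaf1 measured 18.1 FPKM in 0.2% FBS, and 11.6 and 13.8 with exosomes, below all other libraries, which ran from 13.9 in 10% FBS to 19.6 in 2% HS. Ndufaf2 was at 13.4 in the control and at 13.5 and 17.6, a change of 0.19 ± 0.26. Ndufaf3, the lowest of them, was at 2.56 and at 2.62 and 2.90. Both of these changes were no larger than the SD of the pair. Against 10% FBS the Ndufaf genes had a median difference of 0.005 in 0.2% FBS and −0.08 in 2% HS, where the complex I subunits had 0.29 and 0.30. This was not so for assembly factors at large: 28 further ones of complexes I to V, listed below, had medians of 0.22 and 0.26.

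Complex II is the only one of the complexes with all its subunits encoded in the nucleus, and it also serves the citric acid cycle. All 4 of its genes had a mean change below 0, with a median of −0.17 (−0.34 in replicate 1 and −0.03 in replicate 2), and 3 were lower in both libraries. Sdhb, the iron-sulphur subunit with NRF1 letters, measured 162 FPKM in 0.2% FBS, and 112 and 138 with exosomes, a change of −0.39 ± 0.21. Sdha, the flavoprotein that oxidises succinate, was at 98.7 and at 84.6 and 95.7, a change of −0.13 ± 0.12. The lower of the exosome libraries was replicate 1 for both genes.

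Complex III had a median change of −0.44 (−0.58 and −0.24 in the 2 libraries), with 7 of 8 genes lower in both. This median was the lowest of the complexes, though in replicate 2 complex IV lay at −0.25. Uqcrq, a small subunit that contacts the cytochrome b region, was at 239 FPKM in 10% FBS, 419 in 2% HS, 516 in 2% HS + exosome, 435 in 0.2% FBS, and 236 and 306 in 0.2% FBS with exosomes. Its low libraries were the growing cells and the pair with exosomes in 0.2% FBS, and its highest was 2% HS with exosomes. The change in 0.2% FBS, −0.69 ± 0.26 (limma SE 0.29, adjusted p = 0.149), was the lowest change of any member, and the difference in 2% HS was 0.30.

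Uqcrc2, a core protein of complex III, was at 128 FPKM in the control and at 85.6 and 94.7 with exosomes, a change of −0.50 ± 0.10. Growing cells had 104, and both exosome libraries lay below them. Uqcrh, the acidic hinge protein near cytochrome c1, with the GABPA letters shown above, measured 611 FPKM in 0.2% FBS, and 509 and 690 with exosomes. It was at 655 in 10% FBS and 576 in 2% HS, and so was one of the members that did not lie higher in the differentiating controls.

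**Figure D3:**
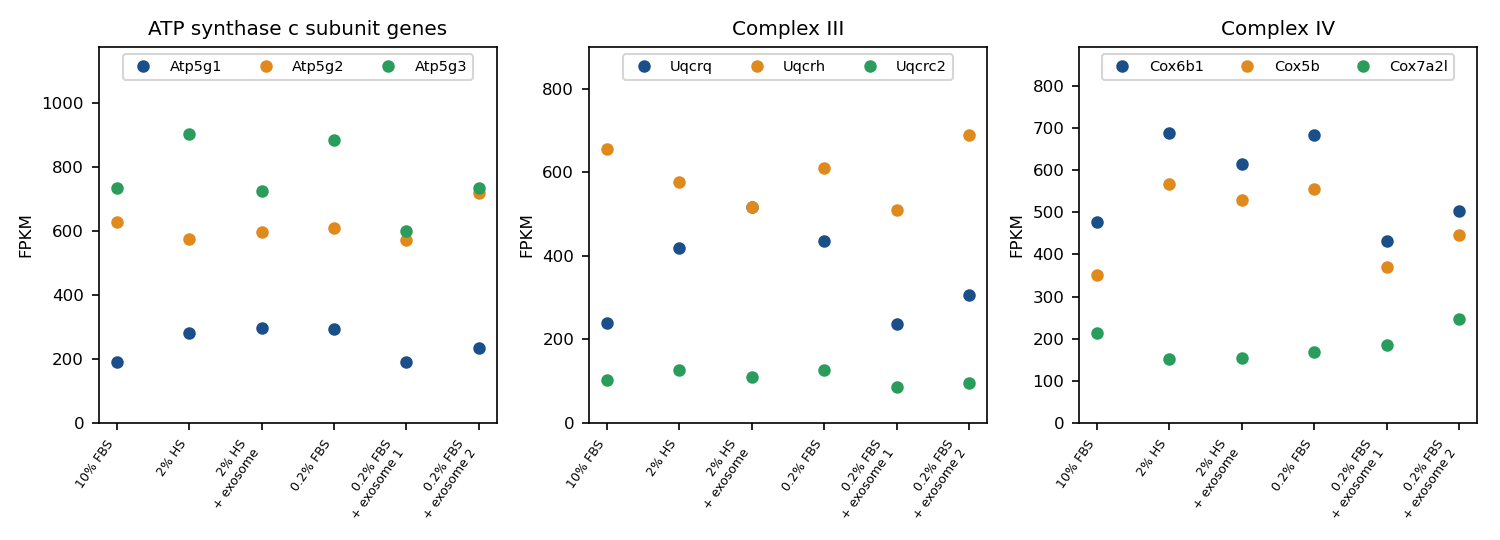
FPKM (vertical axis, linear, from 0) of single genes in each of the 6 libraries, 1 point per library, for the ATP synthase c subunit genes, complex III and complex IV. Atp5g1 and Atp5g3 are lower in both exosome libraries than in 0.2% FBS, while Atp5g2 lies on both sides of its control. Uqcrq is highest in 2% HS + exosome, where its point (516 FPKM) is covered by that of Uqcrh (518), and Cox7a2l has its highest point, 247 FPKM, in the second 0.2% FBS + exosome library.

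Complex IV had a median change of −0.37, with 8 of 10 genes lower in both libraries and 1, Cox7a2l, higher in both. Cox6b1, which caps the enzyme on the cytochrome c side, measured 684 FPKM in 0.2% FBS, and 433 and 502 with exosomes, and at 478, 687 and 614 in 10% FBS, 2% HS and 2% HS + exosome. Its pair of exosome libraries lay on both sides of the growing cells and below the differentiating ones. The change was −0.55 ± 0.15 (limma SE 0.33, adjusted p = 0.285).

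Cox4i1, the ubiquitous form of subunit 4, measured 855 FPKM in 0.2% FBS, and 704 and 852 with exosomes. Ndufa4 was at 850 and at 590 and 698, a change of −0.41 ± 0.17, and Cox7b, a small membrane subunit on the X chromosome, was at 256 and at 169 and 214. Ndufa4 was lower in both libraries by more than the SD of the pair, and Cox4i1 was not. That SD holds no spread of the control. limma gave Ndufa4 an SE of 0.36 (adjusted p = 0.486) and Cox4i1 an SE of 0.37 (adjusted p = 0.831), and called neither. Cox5b, a matrix-side subunit chosen after its values were seen, was 0.69 higher in 2% HS and 0.66 higher in 0.2% FBS than in 10% FBS. Its change with exosomes in 0.2% FBS was −0.45 ± 0.19 (limma SE 0.31, adjusted p = 0.36).

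Some further forms of complex IV subunit genes were at or near 0. Cox4i2, the lung form of subunit 4, reached at most 0.0562 FPKM, Cox6b2, the testis form, at most 0.215, and Ndufa4l2 at most 0.615 in 2% HS + exosome, and Cox8c is listed at 0 in all 6. These are the 4 symbols below the minimum of 1 FPKM. Cox7b2 was the member just inside it, with a mean of 1.86 FPKM, a value of 0.965 in 10% FBS and values of 1.64 to 2.73 in the others. At the estimated depths its values stand for 13 to 33 reads.

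Cox7a2l encodes a factor that joins complexes III and IV into supercomplexes. It was at 213 FPKM in 10% FBS, 152 in 2% HS, 154 in 2% HS + exosome, 169 in 0.2% FBS, and 184 and 247 in 0.2% FBS with exosomes. It was thus lower in both differentiating controls than in growing cells and higher than its control in both exosome libraries, of which the first stayed below the growing cells. The change was 0.34 ± 0.30 (limma SE 0.26, adjusted p = 0.415). Of its 75-base stretches 15.3% also occur in a processed pseudogene, so that reads from both may be mixed.

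Complex V had a median change of −0.28 (−0.40 and −0.16 in the 2 libraries), and 11 of its 15 genes were lower in both libraries and none was higher in both. Atp5b measured 1470 FPKM in 0.2% FBS, and 1070 and 1160 with exosomes, and at 1270, 1550 and 1280 in 10% FBS, 2% HS and 2% HS + exosome. The pair with exosomes was the lowest of the 6. Its change was −0.40 ± 0.08 (limma SE 0.44, adjusted p = 0.581). Atp5k, the small subunit e of the membrane part, had the lowest change of complex V, from 502 to 309 and 415 (−0.49 ± 0.30), and Atp5f1, the stalk subunit b and the lowest of complex V, went from 246 to 171 and 198.

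The c subunit, which forms the rotating ring in the membrane, is encoded by Atp5g1, Atp5g2 and Atp5g3, whose products differ in their leader peptides and give the same mature protein. Atp5g1 was at 190 FPKM in 10% FBS, 281 in 2% HS, 297 in 2% HS + exosome, 295 in 0.2% FBS, and 192 and 233 with exosomes in 0.2% FBS. Atp5g3 was at 735, 905, 726, 885, 602 and 735 in the same order. Both were higher in the differentiating controls than in growing cells and lower in both exosome libraries of 0.2% FBS than in their control. The change was −0.48 ± 0.19 for Atp5g1 (limma SE 0.26, adjusted p = 0.244) and −0.41 ± 0.20 for Atp5g3 (limma SE 0.37, adjusted p = 0.487).

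Atp5g2 was at 629, 574, 597, 610, 573 and 718 FPKM in that order. Its libraries kept within a narrow range, the exosome pair lay on both sides of the control, and the change was 0.07 ± 0.23. Atp5g2 shares 86.9% of its 75-base stretches with 2 processed pseudogenes, while Atp5g3 shares none and Atp5g1 7.54% with genes and pseudogenes, so its level is uncertain. In all, 28 members share such stretches with another gene. Among the 54 that share none, the median change was −0.20 and 38 were lower in both libraries.

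Most members shared one profile. Over the 6 libraries the median Pearson r of log2(FPKM + 1) between a member and the median profile of the others was 0.87, and 34 of 82 members were over 0.9, against 1.76% of genes tested. The 6 with an r below 0 were Atp5sl (−0.60), Cox7a2l (−0.45), Ndufaf3, Cox7b2, Ndufaf2 and Ndufv3, and 10 more, Atp5g2 and Uqcrh among them, had an r from 0 to 0.5. These correlations run over libraries that share depth and scaling, and are given as a description. Atp5sl, a factor of complex I assembly in spite of its symbol, measured 4.87 FPKM in 0.2% FBS, and 6.21 and 7.25 with exosomes. Both were above the other 4 libraries, which ran from 4.16 to 5.56.

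**Figure D4:**
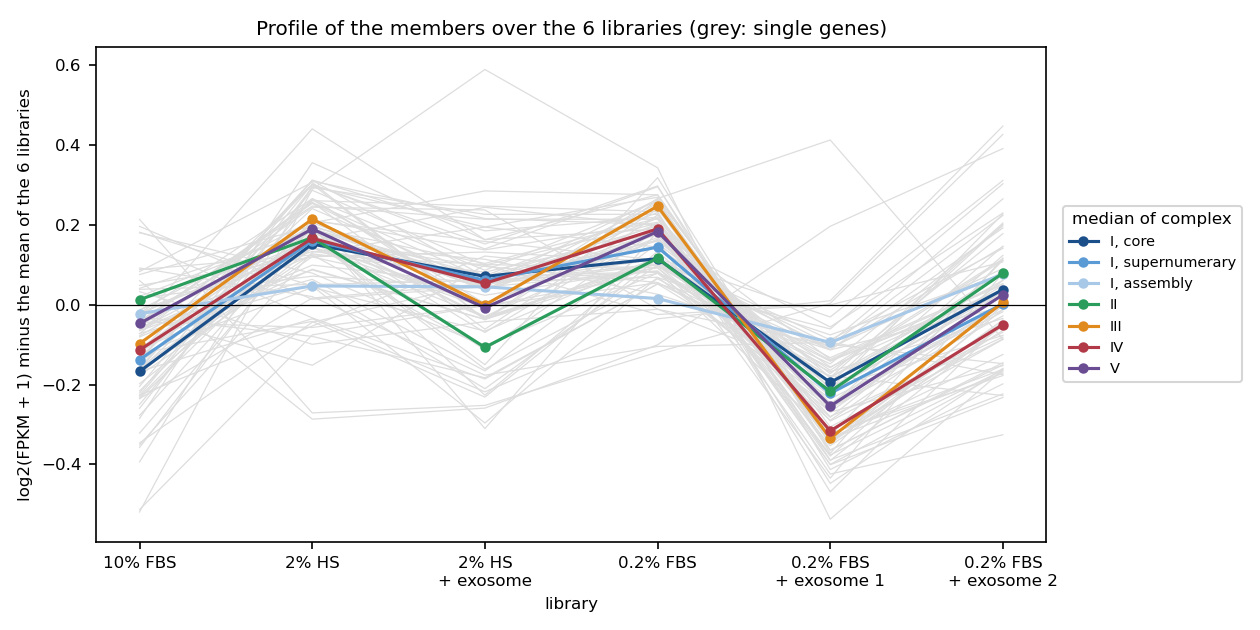
Level in each library as log2(FPKM + 1) minus the gene's own mean over the 6 libraries (vertical axis), with grey lines for single members and coloured lines for the median of each complex; lines join libraries only to guide the eye. The median of all members is 0.16 in 2% HS, 0.16 in 0.2% FBS, and −0.23 and 0.01 in the 0.2% FBS + exosome libraries.

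In 2% HS the exosome difference rests on 1 library a side. There 66 members were lower, against 58.7% of genes tested, with a median of −0.13 against −0.04. Under median ratio scaling these medians were −0.07 and 0.01. The median of the members minus that of all genes tested was −0.09 in 2% HS, and in 0.2% FBS it was −0.46 for replicate 1 and −0.30 for replicate 2. In 2% HS no member passed a log2 difference of 1, where 0.652% of genes tested did. By complex the medians without scaling were −0.08 for complex I core, −0.10 for the supernumerary group and −0.22 for complex II. They were −0.20 for complex III, −0.10 for complex IV and −0.17 for complex V. Under 75th percentile scaling they were −0.05, −0.07, −0.18, −0.17, −0.06 and −0.14 in the same order. Both exosome libraries of 0.2% FBS lay on one side and the 2% HS difference on the other for 9 of 82 members, Uqcrq and Atp5g1 among them, against 45.7% of genes tested. The difference between the media was tested by limma, which called no member and 1.17% of genes tested, with a lowest adjusted p of 0.268 for a member. At an unadjusted p under 0.05 there was no member and 19.5% of genes tested.

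Against growing cells, the 0.2% FBS + exosome libraries showed no common direction. The median over the members was −0.13 in replicate 1 and 0.12 in replicate 2, and 21 were below 10% FBS in both libraries, against 31.0% of genes tested, and 19 above in both, against 42.0%. limma called none of the members and 0.0652% of genes tested. At an unadjusted p under 0.05 it gave 1 member, higher, and 11.5% of genes tested, and the lowest adjusted p of a member was 0.337. Complex I core was at a median of 0.11, complex V at −0.002 and the Ndufaf genes at −0.12.

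The difference between 2% HS and 10% FBS and the exosome change in 0.2% FBS share no library. Across the 82 members their Pearson r was −0.73, and across all 10729 genes tested it was −0.65. Genes are not independent replicates, so this is a description. Uqcrq had both the largest difference between 2% HS and 10% FBS, 0.81, and the lowest exosome change, while Cox7a2l had the lowest difference, −0.48, and a change above 0.

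**Figure D5:**
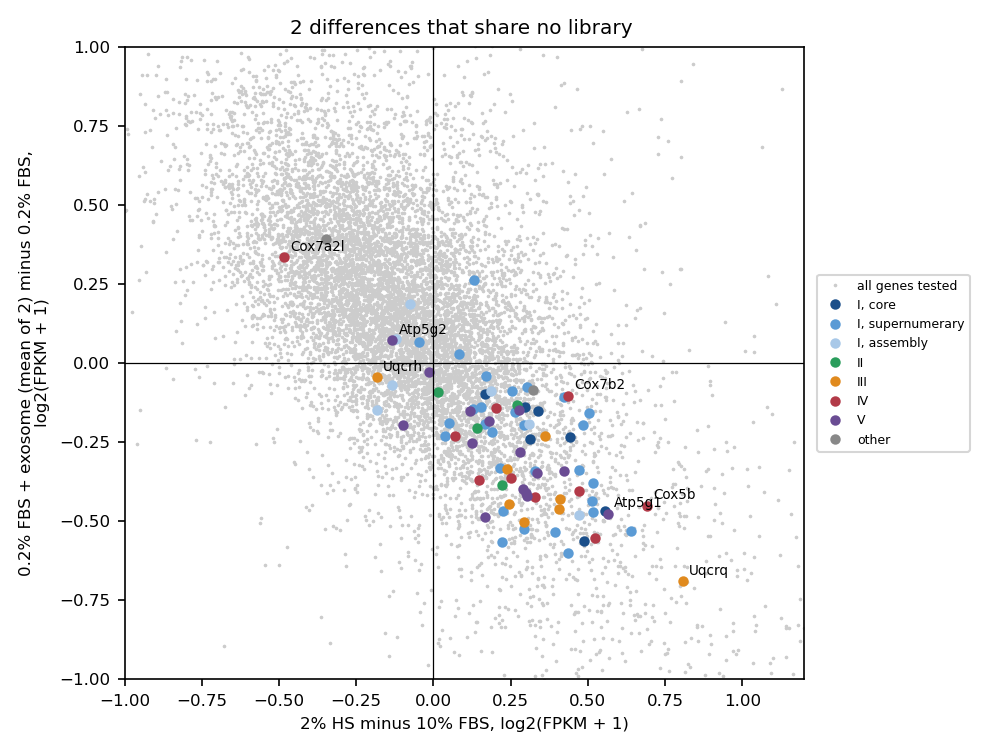
Difference of 2% HS from 10% FBS (horizontal axis) against the mean exosome change in 0.2% FBS (vertical axis), both in log2(FPKM + 1), with members coloured by complex and all genes tested in grey. Most members lie at the lower right, with Uqcrq as the farthest and Cox7a2l at the upper left. The axes hold 10229 of 10729 genes tested and all members.

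Other mitochondrial genes were counted from lists, by limma on the exosome change in 0.2% FBS, in which 4.32% of all genes tested were called lower and 12.5% in either direction. Of 5 electron carrier genes and subunits outside the choice by symbol, 1 fell, Cycs, the cytochrome c gene, from 72.1 FPKM to 40.4 and 47.7 (−0.70, SE 0.19, adjusted p = 0.0447). Of 28 further assembly factors tested, 2 fell: Uqcc1, for complex III, from 32.8 to 18.6 and 17.1 FPKM (adjusted p = 0.0187), and Sco1, which brings copper to complex IV, from 8.71 to 5.33 and 5.07 (adjusted p = 0.0368). Both were higher, not lower, with exosomes in 2% HS, at 39.8 against 37.4 FPKM for Uqcc1 and at 11.0 against 8.25 for Sco1. The 28 assembly factors had a median change of −0.12 in 0.2% FBS (−0.22 in replicate 1 and −0.02 in replicate 2). Of them 15 were lower in both libraries and 3 higher in both, where 27.5% and 55.2% of genes tested were. The calls of Cycs, Uqcc1 and Sco1 were lost in other fits, given below.

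None of 13 citric acid cycle genes was called, with 11 lower in both libraries, where 27.5% of genes tested were. Their median was −0.30 (−0.41 in replicate 1 and −0.17 in replicate 2). Of 77 mitochondrial ribosome genes, Mrpl1 fell (−0.60, limma adjusted p = 0.0498) and Mrps6 rose, from 39.4 to 76.1 and 68.4 FPKM (limma adjusted p = 0.0227). The median of this list was −0.11, with −0.24 in replicate 1 and 0.02 in replicate 2. Of its genes 33 were lower in both libraries and 6 higher in both, where 27.5% and 55.2% of genes tested were. In 2% HS Mrps6 was lower with exosomes, at 33.6 against 47.5 FPKM. In a limma fit with 1 exosome effect common to both media no gene was called, and Cycs, Uqcc1, Sco1, Mrpl1 and Mrps6 had adjusted p from 0.706 to 0.793. A limma fit with a replicate block on the number in the library titles, chosen after seeing the data, also called no gene. None of 12 regulators of mitochondrial biogenesis was called. Their median was 0.16 (0.10 in replicate 1 and 0.21 in replicate 2), near that of all genes. Ppargc1a, the coactivator PGC-1alpha, was at or below 0.0519 FPKM in every library, and Tfam, a factor of mitochondrial transcription, kept between 10.3 and 12.5. None of the 13 subunits encoded in mitochondrial DNA was found by its symbol among the 20945 genes, so they were not analysed here.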

How the data were processed

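Total RNA of C2C12 cells was made into stranded mRNA libraries and sequenced as 75-base reads. The authors trimmed reads with cutadapt 1.9.1 and mapped them to mm10 with TopHat2 2.1.0, per the submitters' processing notes, and deposited FPKM values from Cufflinks as 1 table; FPKM is scaled to length and depth, so counts and counting intervals were not available here. The table's 20950 rows gave 20945 genes after 5 repeated names. Groups follow the labels.

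Values were compared as log2(FPKM + 1), with 10729 genes at a mean of at least 1 FPKM. The study's criterion, a log2 change past 1, was required in both exosome libraries. limma 3.58.1 (R 4.3.3) fitted 1 mean per condition with a mean-variance trend to all genes tested, with Benjamini-Hochberg adjustment over them and 1 residual degree of freedom (prior 7.265), and was tested on simulated data. Members and lists were chosen with earlier results of these data known. Named genes were, by complex, those of highest and lowest level and of largest rise and fall in both exosome libraries, and isoform families; 1 gene this rule names is not reported here. Positions and transcripts come from GENCODE vM21. Depth was estimated from 2524 genes with 1 transcript, of whose low values 74.3% to 76.6% were within 0.1 of a whole read, against 20% if spread evenly. Alternatives were another pseudocount, 2 scalings, another minimum, a common exosome effect and leaving out an exosome library.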

Additional observations from a re-analysis of the deposited data

How the results depend on the processing

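Members lower in both exosome libraries of 0.2% FBS numbered 60, with 71 under 75th percentile scaling and 74 under median ratio scaling, where 37.1% and 41.1% of genes tested were lower. Leaving out replicate 1 or replicate 2 gave 61 or 76, where 32.6% and 39.8% of genes tested were lower. Members higher in both numbered 2 under each scaling and from 6 to 21 with 1 library left out. Both scalings took the median of all genes tested from 0.14 to 0.04 and 0.003, and the members' median minus that median stayed between −0.46 and −0.30 under all of the alternatives run, −0.30 being without replicate 1. Under median ratio scaling the exosome median became −0.39 for complex I core and −0.21 for the Ndufaf genes. Without replicate 1 or replicate 2, the exosome median of complex I core was −0.11 or −0.27. Against 10% FBS, without replicate 1 or replicate 2, complex I core was at 0.21 or −0.0182 and complex V at 0.16 or −0.17. For both of these the direction against growing cells rests on which library is kept. The Ndufaf genes were at −0.0016 or −0.19, below 10% FBS in either case. limma called 6 members lower under 75th percentile scaling and none under another pseudocount, another minimum or 1 exosome effect common to both media, where it called no gene and gave 708 of 10729 at an unadjusted p under 0.05. The cause of these moves was not tested. Leaving out an exosome library leaves no residual degree of freedom, so limma gave no test there. Within a medium the groups share 1 title number, which ties the 0.2% FBS control to replicate 1. With the number as a replicate block over the 2 pairs that share one, a fit chosen after seeing the data, limma called 0 members and no other gene, with 295 of 10729 at an unadjusted p under 0.05. Number and medium cannot be told apart in it.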
